A study of Mus musculus with 24 samples.

Results

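The transcripts described here are those of 40 genes that carry out DNA replication and cell division, measured in the livers of p16-3MR and wild-type mice. They are a list of replication and division genes chosen by name, without a threshold on any measured value. The choice was made with earlier results of these data known. All 40 were found among the 21755 genes of the p16-3MR table. In the wild-type table, whose 12643 gene labels lack 9 letters of the alphabet in lower case, 18 of the 40 had a label that matched 1 symbol, and the other 22 were not used there. By role, 12 of the 40 license and copy DNA at replication origins and forks, 4 supply nucleotides, 8 are cyclins, Cdk1 and transcription factors, 8 are mitotic kinases or act at the checkpoint and at mitotic exit, and 8 belong to chromosomes, kinetochores, centrioles and motors. Of the 18 used in wild-type mice, 8, 0, 1, 3 and 6 had these roles.

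The study compared livers of mice given ganciclovir (GCV) or vehicle (VEH, water at a pH of 11) by intraperitoneal injection on 5 days in a row each month. p16-3MR mice carry a transgene in which regulatory DNA of p16Ink4a drives the 3MR protein, whose viral thymidine kinase part turns GCV into a toxin, so that GCV is meant to kill cells that express p16. The VEH-treated p16-3MR mice carry the transgene too, and treatment in this genotype began at 16 to 18 months of age. Wild-type mice, which lack the transgene, began treatment at 6 months of age and their livers were taken after 3 months. By the study's methods, p16-3MR mice were treated for longer before their livers were taken. The labels give a GCV dose of 150 mg per kg, and the study's methods state another dose. Each genotype had 3 GCV females, 3 VEH females, 3 GCV males and 3 VEH males, 24 livers in all, taken here as separate mice, and p-values measure the spread between these livers. The p16-3MR libraries were batch 1 and the wild-type libraries batch 2. Genotype, batch, age and length of treatment therefore cannot be told apart, and the genotypes were not tested against each other.

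In a cell that is going to divide, the origin recognition complex, Cdc6 and Cdt1 load the ring of Mcm2 to Mcm7 onto DNA, and Cdc45, the GINS complex and Mcm10 then turn the ring into a running helicase. Ribonucleotide reductase, thymidylate synthase and thymidine kinase make the nucleotides, and cyclins with Cdk1, the Aurora and Polo kinases and the spindle checkpoint take the cell through mitosis. Most of these genes are repressed in resting cells and rise together in dividing ones. Adult hepatocytes rarely divide, so the liver holds few such transcripts, and in whole tissue they can come from any dividing cell type, immune cells included. In bulk RNA, fewer cells of a type and less RNA per cell cannot be told apart.

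The p16-3MR libraries held between 5005760 and 7160172 counts, and the wild-type libraries between 3084517 and 5667904. Levels are given as CPM, counts scaled to library sizes that TMM had adjusted, and 3 counts, taken as the floor, amount to 0.293 to 2.32 CPM in p16-3MR livers and 0.516 to 0.943 CPM in wild-type livers. The library of GCV female 33 stood apart from the other p16-3MR libraries. Its mitochondrial share was 64.0% against 12.3% to 22.4%, it had counts for 13409 genes against 16804 to 18659, and its TMM factor was 0.259 against 0.850 to 1.80. Males 32 and 24 stood apart in the other direction, with the highest TMM factors (1.80 and 1.64, against at most 1.19 in the others), the lowest mitochondrial shares (12.3% and 12.5%) and the most genes with counts (18659 and 18645). In liver 33, 3 counts amount to 2.32 CPM, and 13 of the 40 genes had 0 counts in it. Of the 40 genes, 36 had a mean of at least 10 counts per p16-3MR liver and 22 had counts in all 12. The 4 below that mean were Ccne1, Cdc20, Cdc6 and Bub1. In wild-type livers, 9 of the 18 genes had a mean of at least 10 counts. By the annotation, 6 of the 40 genes (Top2a, Cdt1, Mcm7, Rrm1, Kif11 and Foxm1) overlap another gene on the same strand, and 14 overlap a gene on the opposite strand, so their estimated counts are less certain.

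The promoters are shown first, to describe the sequence before these genes, and its part in their levels was not tested. RefSeq promoter sequences (GRCm38.p6, 250 bases before to 50 after the gene start) were found for 33 of the 40 genes and were missing from the table for Ccna2, Ccne2, Mcm4, Aurkb, Kif20a, Foxm1 and Gins1. They were searched on both strands for the cell cycle homology region (CHR, the letters TTTGAA), for the CCAAT box that NF-Y binds (CCAAT), and for E2F sites (TTCCCGC or TTGGCGC or TTCGCGC or TTGCCGC). CHR letters were present for 14 of the 33 genes (42.4%) and for 20.2% of the 27025 genes of the table. CCAAT was present for 25 genes (75.8%), against 41.1% of all genes. E2F letters were present for 12 genes (36.4%), against 10.9% of all genes. The 14 genes with CHR letters also held CCAAT. By role, CHR letters were found for 5 of 7 chromosome, kinetochore and motor genes and 5 of 7 mitotic kinase and checkpoint genes, and for 2 of 10 origin and fork genes. E2F letters were found for 6 of 10 origin and fork genes, 1 of 7 chromosome genes and 1 of 7 mitotic kinase genes. With only the 100 bases before the start, E2F letters were found for 1 gene of each of these roles, and CHR letters for 3 of 7 chromosome genes, 1 of 7 mitotic kinase genes and 1 of 10 origin and fork genes. Of all genes, 4.37% held E2F letters and 6.76% CHR letters in that stretch. Ccne1, Tyms, Tk1, Birc5, Cenpj and E2f1 held none of these letters in the window. A match is a description of the letters, and binding was not measured.

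Printed below are 150 bases upstream of the annotated start of 5 genes, 5′ to 3′ on the gene's own strand (the minus strand of GRCm38.p6 for each), with matched letters of either strand in capitals. Cdk1 at chr10:69352939-69353088 and Cdc20 at chr4:118437353-118437502 show CHR letters close behind a CCAAT box, Top2a at chr11:99024190-99024339 shows repeated CCAAT boxes, Mcm6 at chr1:128359706-128359855 shows E2F letters, and Mcm10 at chr2:5012792-5012941 holds CCAAT alone, as Pcna, Bub1 and Cenpe also did.
Cdk1: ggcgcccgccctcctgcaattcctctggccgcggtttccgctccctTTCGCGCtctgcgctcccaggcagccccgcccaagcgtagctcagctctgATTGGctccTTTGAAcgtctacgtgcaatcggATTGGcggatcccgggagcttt
Cdc20: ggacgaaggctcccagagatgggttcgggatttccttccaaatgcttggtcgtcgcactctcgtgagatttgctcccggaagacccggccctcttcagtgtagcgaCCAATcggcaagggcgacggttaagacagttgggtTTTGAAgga
Top2a: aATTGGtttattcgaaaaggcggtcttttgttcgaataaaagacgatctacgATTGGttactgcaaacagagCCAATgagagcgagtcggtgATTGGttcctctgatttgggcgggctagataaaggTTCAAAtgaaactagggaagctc
Mcm6: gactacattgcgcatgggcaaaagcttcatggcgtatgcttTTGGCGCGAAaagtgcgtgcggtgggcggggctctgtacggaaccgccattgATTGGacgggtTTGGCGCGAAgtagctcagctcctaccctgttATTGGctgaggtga
Mcm10: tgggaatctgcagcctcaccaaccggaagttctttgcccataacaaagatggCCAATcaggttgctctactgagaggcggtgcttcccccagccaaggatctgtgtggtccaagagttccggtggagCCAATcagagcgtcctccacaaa

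In the Mcm6 window the 4 E2F matches lie in 2 runs, each read on both strands with overlapping letters. Mcm10 held 2 CCAAT boxes in its window, as Cdk1 and Mcm6 did, and no CHR or E2F letters in the whole stretch searched.

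In p16-3MR mice, the level of the 40 genes spread widely between livers of the same group, and livers of different groups overlapped. The 40 genes summed to 114, 361 and 166 CPM in GCV females, 126, 335 and 264 in VEH females, 492, 524 and 156 in GCV males and 593, 131 and 103 in VEH males. The livers within each of these lists are in the order 31, 33 and 35, then 27, 28 and 29, then 30, 32 and 34, then 24, 25 and 26, which is kept for every p16-3MR gene that follows. One VEH male (24) and 2 of 3 GCV males (30 and 32) held the highest sums, and the other males (34, 25 and 26) were among the lowest of the 12. Without TMM scaling, liver 33 had 93.3 CPM, 32 had 945 CPM and 24 had 975 CPM. Without Mki67 and Mcm10 the sums were 100.2, 246 and 122 CPM in GCV females, 98.9, 231 and 220.0 in VEH females, 326, 413 and 117 in GCV males and 439, 99.6 and 74.1 in VEH males. The median log2 CPM of the 40 genes was 0.55, 1.39 and 0.97 in GCV females, 0.39, 2.15 and 2.13 in VEH females, 2.57, 3.05 and 0.33 in GCV males and 3.05, 0.64 and 0.01 in VEH males. The typical standard deviation between livers of a group, taken as the median over genes, was 1.40 on the log2 scale for the 40 genes and 0.61 for all genes. Among VEH males, liver 24 was the highest for 39 of the 40 genes, and it was the highest for 38.2% of all 21755 genes. Among GCV males, liver 32 was the highest for 26 of the 40 genes, 30 for 11 and 34 for 3, beside 39.8%, 19.8% and 34.9% of all genes. Among VEH females, 28 was the highest for 27, 29 for 11 and 27 for 2, beside 32.3%, 28.1% and 30.9%. Among GCV females, 33 was the highest for 20, 35 for 12 and 31 for 8, beside 28.4%, 30% and 29.4%.

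**Figure D1:**
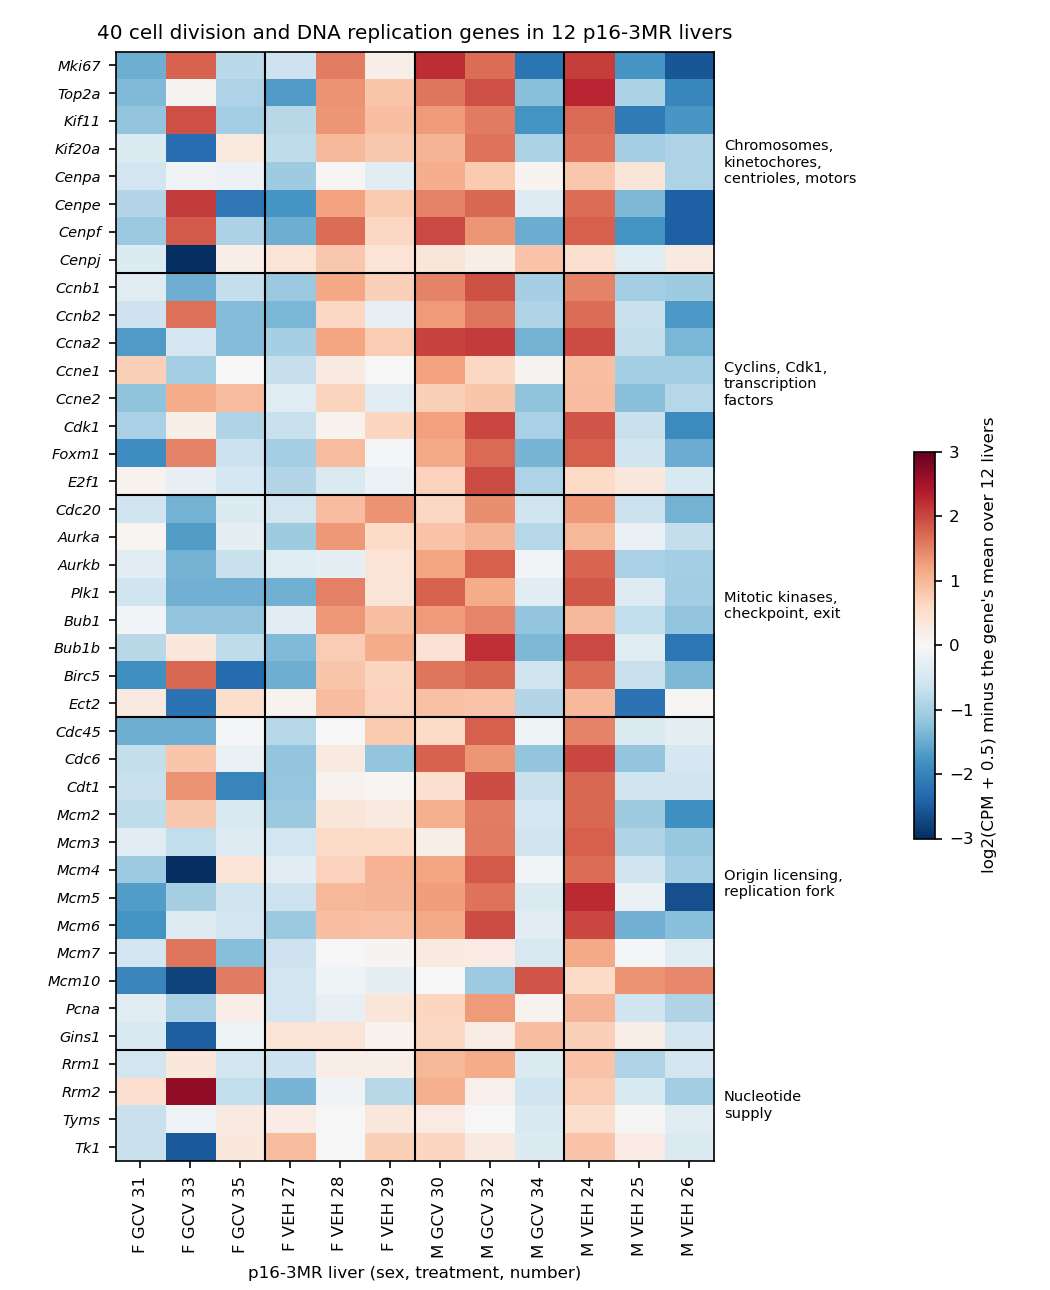
Heat map of the 40 genes (rows, by role) in the 12 p16-3MR livers (columns, by sex and treatment). Colour is log2(CPM + 0.5) minus the gene's mean over the 12 livers. Males 30, 32 and 24 are red in most rows and males 34, 25 and 26 blue, while the Mcm10 row runs otherwise. Deep blue in female 33 often marks 0 counts, which 13 genes had there.

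Mki67 encodes the Ki-67 protein that coats mitotic chromosomes and is the standard mark of dividing cells. Its level was 11.8, 114 and 18.6 CPM in GCV females, 21.3, 96.7 and 37.5 in VEH females, 157, 107 and 6.92 in GCV males and 141, 9.46 and 5.16 in VEH males. One liver in each VEH group and in the GCV females, and 2 in the GCV males, were near or above 100 CPM, and the groups overlapped. Top2a, the topoisomerase that untangles replicated DNA, was at 2.89, 8.5 and 4.03 CPM in GCV females, 2.14, 21.4 and 14.9 in VEH females, 25.6, 32.4 and 3.07 in GCV males and 41.2, 3.93 and 1.72 in VEH males. It was high in 30, 32 and 24 as Mki67 was, but liver 33, which had 114 CPM of Mki67, had 11 Top2a counts. Cenpa, the histone variant of centromeres, was at 1.54, 2.32 and 2.18 CPM in GCV females, 0.938, 2.6 and 1.89 in VEH females, 5.92, 4.68 and 2.69 in GCV males and 4.78, 3.39 and 1.09 in VEH males. Its highest livers were again 30, 24 and 32. Cenpj, which builds centrioles, was at 2.89, 0 and 4.7 CPM in GCV females, 5.5, 7.38 and 5.54 in VEH females, 5.35, 4.59 and 7.68 in GCV males and 5.83, 3.04 and 5 in VEH males. It did not follow Mki67: its highest liver was 34, it was lowest in 31 and in 33 with 0 counts, and the 3 GCV females lay below the 3 VEH females. Kif11 (a spindle motor), Kif20a (a cytokinesis motor), Cenpe and Cenpf (kinetochore proteins) ranged from 0.357 to 13.9, 0 to 7.12, 0.313 to 18.5 and 0.156 to 13.5 CPM over the 12 livers.

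Cdk1, the kinase that drives entry into mitosis, was at 0.771, 2.32 and 0.839 CPM in GCV females, 1.07, 2.17 and 3.4 in VEH females, 5.35, 9.46 and 0.768 in GCV males and 8.64, 1.07 and 0.156 in VEH males. Ccnb1, one of its cyclins, was at 0.578, 0 and 0.335 CPM in GCV females, 0.134, 2.6 and 1.76 in VEH females, 3.38, 4.68 and 0.192 in GCV males and 3.38, 0.179 and 0.156 in VEH males. Ccna2, the cyclin of S phase and early mitosis, was at 0.386, 1.54 and 0.671 CPM in GCV females, 0.938, 6.08 and 4.4 in VEH females, 11.3, 11.9 and 0.576 in GCV males and 10.7, 1.25 and 0.625 in VEH males. These genes shared the order of Mki67 in males, with 30, 32 and 24 well above 34, 25 and 26. Ccne1, the cyclin of the start of S phase, was at 1.16, 0 and 0.503 CPM in GCV females, 0.134, 0.723 and 0.503 in VEH females, 1.83, 1.07 and 0.576 in GCV males and 1.4, 0 and 0 in VEH males, and had a mean of only 4.83 counts. E2f1, a transcription factor of S phase genes, was at 2.12, 1.54 and 1.17 CPM in GCV females, 0.804, 1.3 and 1.64 in VEH females, 3.38, 8.88 and 0.768 in GCV males and 3.15, 2.5 and 1.25 in VEH males, with liver 32 far above the others. Ccnb2, Ccne2 and the mitotic transcription factor Foxm1 reached 4.78, 3.86 and 5.83 CPM at the most. The mitotic kinases Plk1 and Aurkb were at 0.386, 0 and 0 CPM in GCV females, 0, 3.33 and 1.26 in VEH females, 4.09, 2.44 and 0.576 in GCV males and 4.43, 0.536 and 0.156 in VEH males and at 0.578, 0 and 0.335 CPM in GCV females, 0.536, 0.579 and 1.26 in VEH females, 2.54, 4.1 and 0.768 in GCV males and 3.97, 0.179 and 0.156 in VEH males. Plk1 had 0 counts in 3 female livers, 33, 35 and 27. The other genes of that role, Aurka, Bub1, Bub1b, Cdc20, Birc5 and Ect2, reached between 2.63 CPM (Bub1) and 9.76 CPM (Bub1b), and liver 32 was the highest for Bub1, Bub1b, Cdc20 and Aurkb.

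Of the helicase ring, Mcm2 was at 2.51, 8.5 and 3.19 CPM in GCV females, 1.88, 6.08 and 5.66 in VEH females, 10.3, 14.4 and 3.07 in GCV males and 16.5, 1.96 and 0.938 in VEH males. Mcm3 was at 4.24, 3.09 and 4.03 CPM in GCV females, 3.49, 8.39 and 8.31 in VEH females, 6.2, 16.9 and 3.46 in GCV males and 20.1, 2.68 and 2.19 in VEH males. Mcm4 was at 2.51, 0 and 8.05 CPM in GCV females, 4.69, 9.84 and 12.7 in VEH females, 14.1, 22.5 and 5.57 in GCV males and 20.1, 3.75 and 2.66 in VEH males. In each of these, livers 32 and 24 were the highest 2 of the 12, and 25 and 26 were among the low ones. Mcm5 was at 0.771, 1.54 and 2.18 CPM in GCV females, 2.14, 7.67 and 7.8 in VEH females, 9.16, 12 and 2.5 in GCV males and 18.8, 3.04 and 0.156 in VEH males. Mcm6 was at 1.16, 3.86 and 3.35 CPM in GCV females, 2.14, 10.1 and 9.94 in VEH females, 12.1, 21.6 and 4.03 in GCV males and 22.3, 1.61 and 1.88 in VEH males. Mcm7, whose gene also overlaps 3 microRNA genes, was at 7.9, 37.8 and 4.7 CPM in GCV females, 7.64, 12 and 12.7 in VEH females, 14.5, 14.2 and 8.45 in GCV males and 27.2, 11.8 and 9.22 in VEH males. Liver 33 broke the pattern here, with 49 counts of Mcm7 against 0 of Mcm4 and 2 of Mcm5. Pcna, the sliding clamp of the DNA polymerases, was at 23.3, 14.7 and 33.9 CPM in GCV females, 19.6, 24.6 and 37.6 in VEH females, 46.4, 71.5 and 31.5 in GCV males and 59.4, 19.1 and 15.5 in VEH males, and its range over the 12 livers, 2.26 on the log2 scale, was narrower than that of Mcm2 to Mcm6. Cdc45, a helicase subunit, was at 0, 0 and 0.839 CPM in GCV females, 0.268, 0.868 and 1.89 in VEH females, 1.55, 4.29 and 0.768 in GCV males and 3.38, 0.536 and 0.625 in VEH males. Gins1, of the GINS complex, was at 1.54, 0 and 2.01 CPM in GCV females, 3.22, 3.18 and 2.52 in VEH females, 3.8, 2.73 and 4.8 in GCV males and 4.08, 2.68 and 1.41 in VEH males, and its 3 GCV females lay below the 3 VEH females. Cdc6 and Cdt1, the loaders, reached 4.08 and 9.66 CPM.

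Mcm10, which binds the new helicase and opens DNA, ran otherwise. It was at 1.74, 0.772 and 25.2 CPM in GCV females, 5.36, 7.52 and 6.8 in VEH females, 8.17, 3.61 and 32.1 in GCV males and 12.5, 21.8 and 23.4 in VEH males. The highest livers were 34, 35, 26 and 25, which held low levels of Mki67 and Top2a, and 24 was the lowest of the VEH males for Mcm10 alone of the 40 genes. Mcm10 lies at chr2:4989714-5012791 on the minus strand (GRCm38) and overlaps no other annotated gene. Of the nucleotide enzymes, Rrm1, the large subunit of ribonucleotide reductase, was at 9.06, 17 and 9.06 CPM in GCV females, 8.44, 15.6 and 15.6 in VEH females, 27.5, 30.1 and 9.99 in GCV males and 25.1, 6.96 and 9.07 in VEH males. Rrm2, its small subunit, was at 13.5, 61.8 and 5.37 CPM in GCV females, 3.22, 8.54 and 5.03 in VEH females, 20.2, 10.4 and 5.95 in GCV males and 16.2, 6.61 and 4.22 in VEH males, with the highest value in liver 33. Tk1, thymidine kinase, was at 4.05, 0.772 and 8.55 CPM in GCV females, 13.5, 6.8 and 11.3 in VEH females, 10.9, 8.29 and 4.99 in GCV males and 12.7, 8.04 and 4.85 in VEH males. Tk1 and Tyms, which makes thymidylate, did not separate livers 30, 32 and 24 from the rest, and Tyms stayed between 3.08 and 7.82 CPM.

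**Figure D2:**
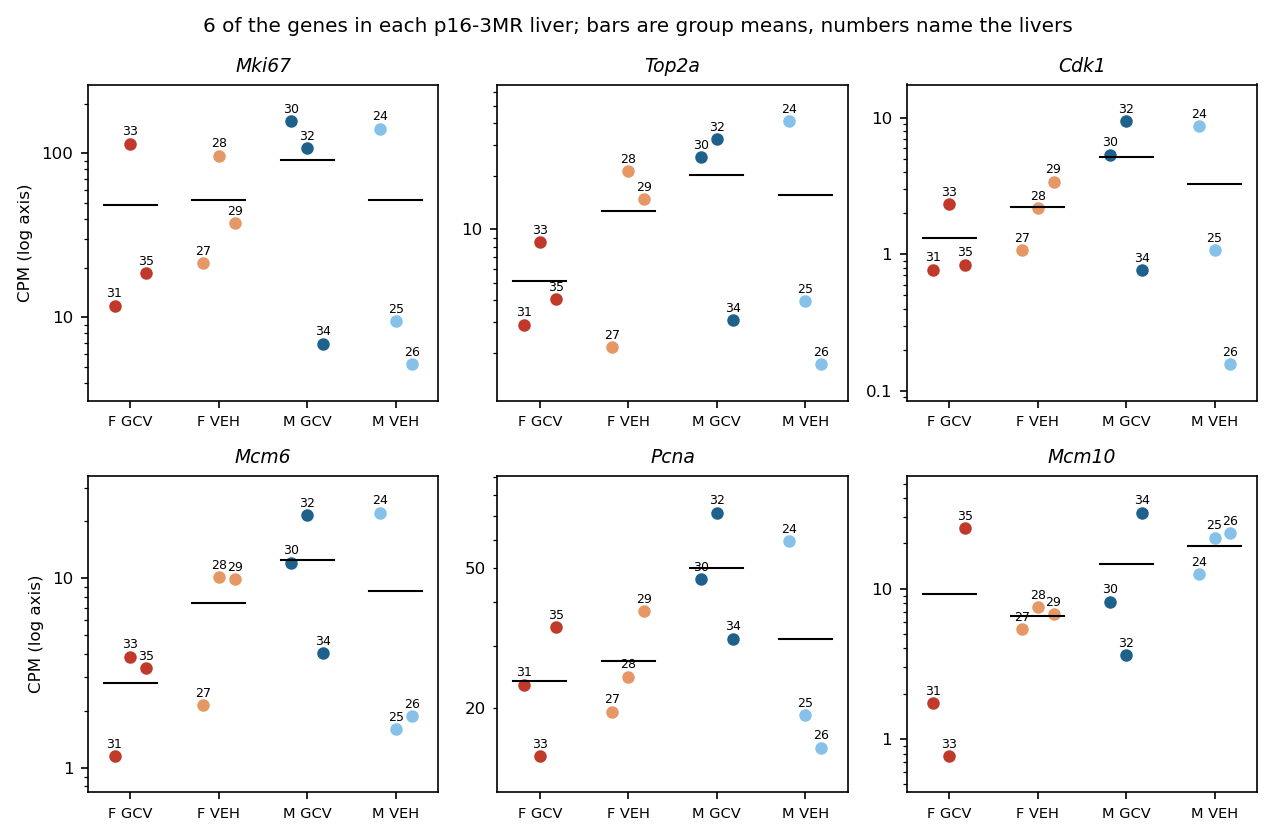
CPM on a log axis of 6 genes in each p16-3MR liver, by group, with group means as bars and liver numbers beside the points. Mki67, Top2a, Cdk1, Mcm6 and Pcna are higher in males 30, 32 and 24 than in males 34, 25 and 26. Mcm10 is highest in liver 34, at 32.1 CPM, and lowest in liver 33, at 0.772 CPM.

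Some markers of immune cells varied beside these levels. Ptprc, carried by all immune cells, was at 17.9, 21.6 and 12.2 CPM in GCV females, 18, 59.3 and 69.8 in VEH females, 52.4, 156 and 19.8 in GCV males and 93.1, 14.3 and 11.1 in VEH males. The 6 Kupffer cell markers (liver macrophages) summed to 322, 214 and 108 CPM in GCV females, 291, 932 and 744 in VEH females, 904, 2828 and 213 in GCV males and 1683, 336 and 150.4 in VEH males. Both were highest in livers 32 and 24, and both were low in liver 33, where Mki67 was high. Of the markers of red blood cells and their precursors, 5 (4 globin genes and Alas2, an enzyme of heme synthesis) summed to 38.6, 2292 and 272 CPM in GCV females, 248, 1156 and 271 in VEH females, 1558, 753 and 350.0 in GCV males and 1311, 383 and 274 in VEH males. They were highest in liver 33, and the 5 livers with the highest sums (33, 30, 24, 28 and 32) were the 5 with the highest Mki67. The place of liver 33 in both orders depends on TMM scaling (factor 0.259), without which its levels are lower. The 6 markers of monocytes and neutrophils summed to 66.7, 218 and 16.1 CPM in GCV females, 12.6, 353 and 76 in VEH females, 201, 709 and 16.5 in GCV males and 274, 19.3 and 8.91 in VEH males. Those of T and NK cells, of which Cd8a, Cd4 and Nkg7 were at 0 in some liver, summed to 2.31, 9.27 and 3.52 CPM in GCV females, 5.23, 7.38 and 59.8 in VEH females, 37.8, 97.2 and 12.5 in GCV males and 129.9, 5.36 and 2.66 in VEH males. Monocyte and neutrophil markers were highest in livers 32, 28, 24 and 33, and T and NK cell markers in 24, 32, 29 and 30. The 6 of B and plasma cells summed to 2.31, 15.4 and 17.4 CPM in GCV females, 13.4, 23.4 and 61.7 in VEH females, 35.1, 19.2 and 48.2 in GCV males and 24.5, 13.8 and 7.35 in VEH males. These ran otherwise in males, with liver 34, where Mki67 was low, above 32 and 24. The 6 hepatocyte markers summed to 95989, 155645 and 108727 CPM in GCV females, 105048, 114419 and 88904 in VEH females, 80893, 24643 and 81528 in GCV males and 40104, 85350.0 and 93427 in VEH males, lowest in livers 32 and 24. In GCV females, VEH females, GCV males and VEH males in turn, stellate cell markers summed to 163 to 284, 308 to 353, 164 to 1235 and 215 to 462 CPM, sinusoidal endothelial markers to 71.8 to 134, 85.6 to 185, 79.3 to 150.3 and 98.4 to 168 CPM, and bile duct markers to 36.6 to 142, 34.7 to 98, 85.9 to 143 and 50.3 to 64.1 CPM. Cd14, Mzb1, Krt19, Krt7 and Cldn4 were also at 0 in some liver, while the 6 hepatocyte markers were present in every liver. The part of cell makeup in the levels of the 40 genes was not tested.

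**Figure D3:**
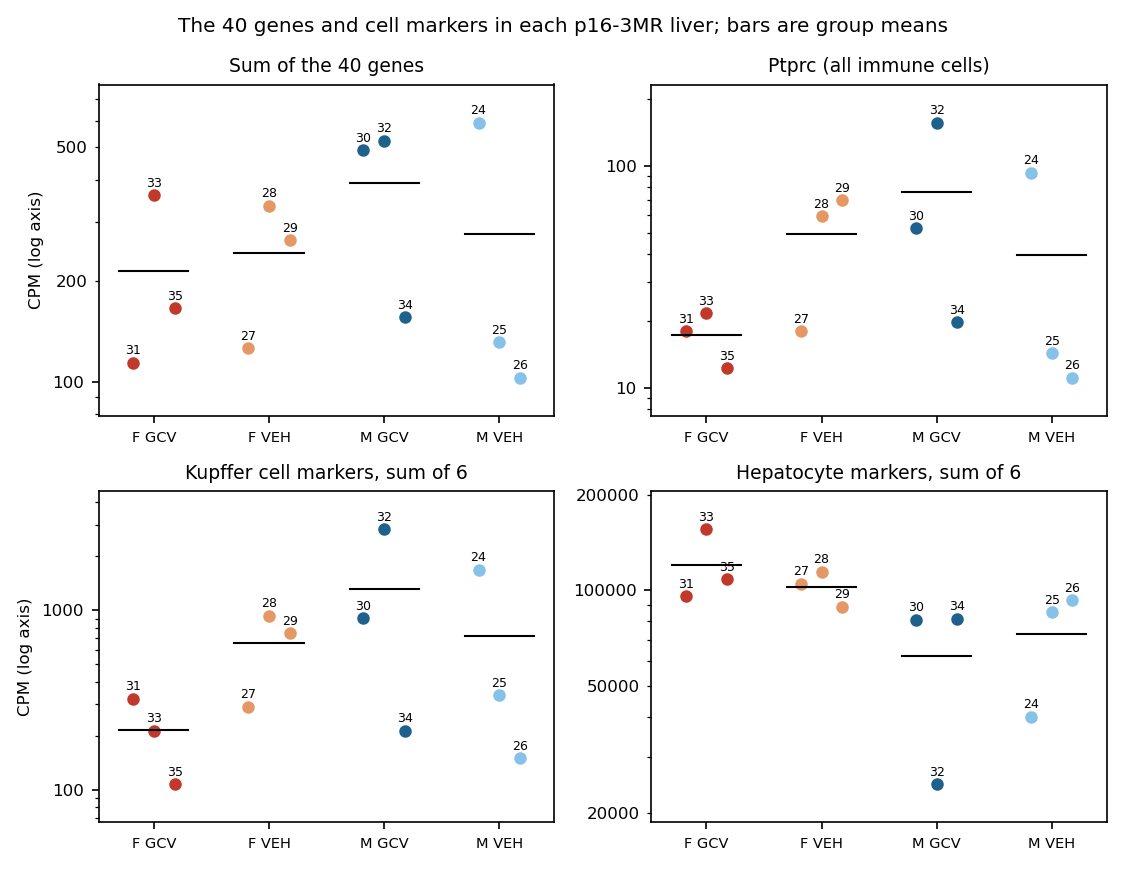
Summed CPM of the 40 genes, of Ptprc, of 6 Kupffer cell markers and of 6 hepatocyte markers in each p16-3MR liver, on log axes, by group with group means as bars. Livers 32 and 24 are at the top for Ptprc and Kupffer markers and at the bottom for hepatocyte markers among males. Liver 33 has 361 CPM of the 40 genes beside 21.6 CPM of Ptprc.

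In p16-3MR females, the comparison of GCV with VEH asks whether these genes change when p16-expressing cells are targeted. Of the 40 genes, 29 had lower and 11 higher fitted levels after GCV, and none passed the test. With edgeR's quasi-likelihood test, 0 of 40 had an adjusted p under 0.05 (Benjamini-Hochberg over all genes), and 0% of all genes. DESeq2 and limma-voom also called 0 of 40. Here and below, shares of all genes are those of edgeR unless another fit is named. Where no share is given for DESeq2 or limma-voom, their counts have no background beside them. At an unadjusted p under 0.05 there was 1 gene with edgeR, against 7.31% of all genes. The median log2 fold change of the 40 was -0.56, beside 0.00 over all genes. The 1 gene was Rrm2, with a log2 fold change of 2.2 ± 0.84 (SE, n = 3 per group) and an adjusted p of 0.672. Its 3 GCV livers, however, overlapped the 3 VEH livers, and without liver 33 the change was 0.68 ± 0.69 (adjusted p = 0.871).

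The next genes by p in females, among those with a mean of at least 10 counts, had lower values after GCV. Tk1 had -1.11 ± 0.59 (adjusted p = 0.676), Plk1 -3.11 ± 1.71 (adjusted p = 0.677) and Ccna2 -2.4 ± 1.33 (adjusted p = 0.68) on the log2 scale. With 1 liver left out, Tk1 ran from -1.9 to -0.8, the latter without GCV female 33. Plk1 had 0 counts in 2 of 3 GCV females, so its fitted size depends on the prior count, and it ran from -6.35 to -1.95 with 1 liver left out. Cenpj followed with -1.08 ± 0.62 (adjusted p = 0.685) and Mcm5 with -1.95 ± 1.18 (adjusted p = 0.694). The study, with its own DESeq2 analysis, reported Cenpj as lower in these females at an adjusted p under 0.05. That call was not reached here, and the reason was not tested. Cenpj ran from -1.72 to -0.75 with 1 liver left out, the latter again without GCV female 33. Cenpj and Gins1 were the only ones of the 40 whose 3 GCV livers all lay below the 3 VEH livers, while 7.35% of all genes did so, and none lay above, against 5.91% of all genes. Mki67 had -0.14 ± 1.34, Top2a -1.43 ± 1.23, Cdk1 -0.99 ± 1.2, Ccnb1 -1.93 ± 1.42 and Ccne1 0.51 ± 1.3. Of the ring, Mcm2, Mcm3, Mcm4, Mcm6 and Mcm7 had -0.07 ± 0.96, -0.79 ± 0.82, -1.18 ± 0.93, -1.48 ± 1.06 and 0.55 ± 0.66. Pcna had -0.17 ± 0.52 and Rrm1 -0.22 ± 0.54. By role, all 8 genes of the mitotic kinases and checkpoint had negative values (median -1.25), and the 8 cyclins and factors were split 4 and 4 (median 0.04). Without liver 33 the median of the 40 was -0.91, with 33 genes below 0.

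In p16-3MR males, 36 of the 40 genes had higher and 4 lower fitted levels after GCV, and again none passed. edgeR called 0 of 40, and 0% of all genes, and no gene of the 40 had an unadjusted p under 0.05, against 1.85% of all genes. DESeq2 called 0 of 40. The median log2 fold change was 0.52 for the 40 genes and 0.04 for all genes. Among genes with a mean of at least 10 counts, the smallest unadjusted p belonged to Rrm1, with 0.71 ± 0.52, then Pcna with 0.67 ± 0.51, E2f1 with 0.93 ± 0.72, Ccnb1 with 1.11 ± 1.19, Cenpa with 0.52 ± 0.6 and Ccna2 with 0.9 ± 1.06, and the adjusted p of each was 1. Mki67 had 0.8 ± 1.33, Top2a 0.38 ± 1.12, Cdk1 0.65 ± 1.03, Ccne1 1.2 ± 1.23, Tk1 -0.08 ± 0.57 and Cenpj 0.33 ± 0.6. Mcm2 to Mcm7 had 0.51 ± 0.9, 0.09 ± 0.77, 0.67 ± 0.88, 0.1 ± 1.02, 0.54 ± 0.95 and -0.37 ± 0.64. The genes below 0 were Mcm7, Mcm10, Tyms and Tk1. None of the 40 separated the 3 GCV from the 3 VEH males, while 2.83% of all genes did so with lower and 3.57% with higher values after GCV.

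The male values depended on single livers. Without VEH male 24, the median of the 40 genes was 2.60, with 39 genes above 0, and 20 of 40 had an unadjusted p under 0.05, against 7.53% of all genes, while edgeR still called 0 of 40. Mcm6 then had 2.88 ± 0.85 (adjusted p = 0.589), Mcm2 2.72 ± 0.82, Pcna 1.56 ± 0.49, Cdk1 3.13 ± 1.09, Mki67 3.67 ± 1.35 and Top2a 2.9 ± 1.07. limma-voom with sample quality weights, which weighs livers by how well they fit, gave a median of 2.19 and 27 genes higher and 1 lower (Mcm10) at an unadjusted p under 0.05, against 23.1% of all genes, and called 1 gene, Ccne1 (adjusted p = 0.0229), against 0.667% of all genes called. Ccne1 had a mean of only 4.83 counts and no counts in the VEH males other than 24. Without GCV male 32 the median was 0.066 and E2f1 had -0.16, and without VEH male 26 it was 0.10. Livers 24 and 32 are those with the highest TMM factors, and Ptprc was 93.1 CPM in liver 24 and 11.1 to 14.3 CPM in the other VEH males. The part of these in the result was not tested.

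The difference between the sexes in the change with GCV was tested directly. edgeR called 0 of 40 (0% of all genes), with 0 of 40 at an unadjusted p under 0.05 against 3.69% of all genes, and DESeq2 and limma-voom called 0 of 40. The median difference, females minus males, was -1.06, beside -0.04 over all genes. By p, among genes with a mean of at least 10 counts, Ccna2 had -3.3 ± 1.71, Plk1 -3.56 ± 2.12, Gins1 -1.53 ± 0.92, Cenpj -1.42 ± 0.86 and Ccnb1 -3.04 ± 1.86, and Rrm2 1.77 ± 1.14 in the other direction, each with an adjusted p of 0.98. With 1 liver left out, Ccna2 ran from -5.57 to -2.8, Plk1 from -6.79 to -2.36 and Ccnb1 from -5.92 to -2.41. Gins1 ran from -2.01 to -1.22 and Cenpj from -2.05 to -1.06. The value of Rrm2 was 0.26 without GCV female 33 and up to 2.32 without another liver, and limma-voom with quality weights gave -0.49. Without VEH male 24 the median was -3.30 and 21 of 40 had an unadjusted p under 0.05, against 8.38% of all genes, with 0 called.

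**Figure D4:**
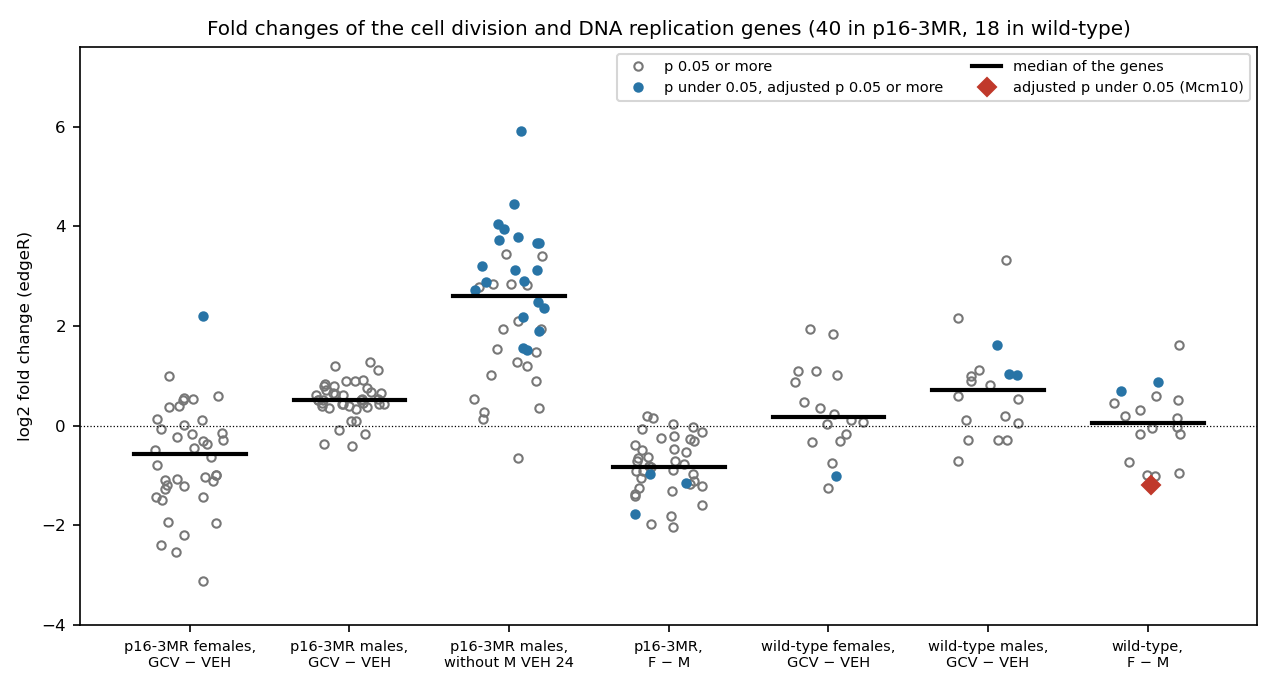
log2 fold change of each gene by comparison, with the median as a bar. Filled blue points have an unadjusted p under 0.05, and the red diamond, Mcm10 in wild-type females minus males, an adjusted p under 0.05. Leaving out 1 VEH male (24) moves the p16-3MR male median from 0.52 to 2.60.

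Between the sexes in p16-3MR mice, over both treatments, 37 of 40 genes had lower and 3 higher fitted levels in females, and none passed the test. edgeR called 0 of 40, against 0.276% of all genes, and 3 of 40 had an unadjusted p under 0.05, against 6.92% of all genes. DESeq2 and limma-voom called 0 of 40. Those 3 were Cenpa with -0.97 ± 0.44, Aurkb with -1.77 ± 0.81 and E2f1 with -1.16 ± 0.54, each at an adjusted p of 0.7. Without VEH male 24, Ccna2, Cdc45, Plk1 and Aurkb had -0.77, -0.91, -0.86 and -0.3. E2f1 had -0.67 without GCV male 32, and Cdc45 -3.75 without GCV female 35 and Plk1 -3.6 without GCV female 31, where the GCV females left had 0 counts. With all livers, Ccna2 had -1.82 ± 0.85, Cdc45 -1.59 ± 0.81, Plk1 -1.98 ± 1.06 and Mcm10 -1.05 ± 0.69. The median of the 40 was -0.82, beside -0.07 over all genes. In VEH-treated livers alone it was -0.20, and without VEH male 24 it was 0.04, with 21 genes higher and 19 lower in females.

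The wider pathway was read from 84 other genes of replication and division, of which 83 were in the p16-3MR table. None passed an adjusted p under 0.05 in any of the 4 p16-3MR comparisons, and the background shares for these tests are those given above. In females, 56 of 83 had lower and 27 higher values after GCV (median log2 fold change -0.32), with 7 lower and 2 higher at an unadjusted p under 0.05. Rfc1, of the clamp loader, was at 12.5, 10.8 and 19.5 CPM in GCV females, 26.1, 34.6 and 24.8 in VEH females, 21.4, 30.1 and 18.2 in GCV males and 25.3, 19.8 and 26.3 in VEH males, a change of -0.98 ± 0.33 in females, where the 3 GCV livers lay below the 3 VEH livers. Nuf2 (a kinetochore protein) had -3.72 ± 1.49, Nusap1 (a spindle protein) -3.49 ± 1.42, Rbl2 (a pocket protein that represses division genes) -0.89 ± 0.39 and Orc4 (of the origin recognition complex) 0.76 ± 0.33. Nuf2 and Nusap1 had 0 counts in some GCV females, so the size of their fitted change depends on the prior count. The adjusted p of these genes was 0.652 to 0.672. With 1 liver left out, Nuf2 ran from -6.88 to -3.05 and Rbl2 from -1.52 to -0.64. In males, 64 of 83 had higher and 19 lower values (median 0.32) and 0 had an unadjusted p under 0.05. Ccnd3 led with 0.59 ± 0.38 and Rbl2 followed with -0.54 ± 0.39. With 1 liver left out, they ran from 0.36 to 1.04 and from -0.8 to -0.34. Between the sexes, 73 of 83 had lower and 10 higher fitted levels in females (median -0.59). The exception by p was Ccnd1, the cyclin that starts the cycle, at 134, 17.8 and 347 CPM in GCV females, 110.3, 48.2 and 85.5 in VEH females, 20.7, 59.1 and 42.1 in GCV males and 56.6, 40.7 and 9.22 in VEH males. Its sex difference was 1.62 ± 0.61 (adjusted p = 0.7), and liver 33 was the lowest of the females.

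In wild-type livers, 18 of the genes could be read, and all but Mcm10 and Mcm7 stayed under 8 CPM. The 18 summed to 86.3, 95.2 and 91.7 CPM in GCV females, 91.5, 91.8 and 82.3 in VEH females, 144, 153 and 129.7 in GCV males and 134, 129 and 127 in VEH males, and without Mki67 and Mcm10 they summed to 50.2, 49.5 and 43.2 CPM in GCV females, 42.5, 49.1 and 48.2 in VEH females, 52.5, 41.6 and 49.1 in GCV males and 44.4, 40.4 and 37 in VEH males, where the sexes overlapped. Livers are in the order 4, 5 and 6 for females of either treatment and 1, 2 and 3 for males. The typical standard deviation between livers of a group was 0.58 on the log2 scale for the 18 genes and 0.34 for all genes, and no liver was the highest of its group for more than 8 of the 18. Ptprc was at 9.04, 12.7 and 11.9 CPM in GCV females, 12.2, 18.6 and 11.3 in VEH females, 11, 8.41 and 8.24 in GCV males and 7.19, 4.15 and 9.09 in VEH males, and the 3 Kupffer cell markers that could be matched summed to 133, 127 and 122 CPM in GCV females, 103, 154 and 134 in VEH females, 112, 84.5 and 131 in GCV males and 127, 102 and 91.3 in VEH males. A label that fits both Bub1 and Bub1b and no other gene had 0 to 6 counts per liver.

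Mcm10 was the 1 gene that passed the test in wild-type mice, and it was higher in males. It was at 30.7, 43.2 and 46.3 CPM in GCV females, 45.1, 36.7 and 31.5 in VEH females, 89.3, 104 and 76.3 in GCV males and 87.8, 86.3 and 87.4 in VEH males. The lowest male (76.3 CPM) lay above the highest female (46.3 CPM), a separation that 2.46% of all genes showed in that direction. Hepatocyte markers (2 matched) also separated the sexes, at 13215 to 14880 CPM in females and 16887 to 18920 in males. Stellate cell markers (4 matched) summed to 276 to 340 CPM in females and 216 to 269 in males, and the other marker lists overlapped. TMM factors were 1.11 to 1.14 in females and 0.835 to 0.975 in males. The part of these in the Mcm10 level was not tested. Females minus males, the log2 fold change was -1.18 ± 0.11, a level 2.27-fold higher in males, with an adjusted p of 9.12e-11 by edgeR. It was the only one of 18 called, against 8.44% of all genes, and DESeq2 and limma-voom called it too. At an unadjusted p under 0.05 there were 3 of 18, against 20.0% of all genes. The others were Cenpj, with 0.87 ± 0.3 (adjusted p = 0.0685, and 0.0211 without GCV male 1 and up to 0.192 without another liver), and Top2a, with 0.7 ± 0.33 (adjusted p = 0.212). With 1 liver left out, Top2a ran from 0.38 to 0.92 (adjusted p from 0.0681 to 0.64). Mcm4, Mcm6 and Mcm7 had 0.52 ± 0.39, 0.32 ± 0.28 and -0.17 ± 0.15. Mcm4 ran from 0.27 to 0.76 and Mcm6 from 0.18 to 0.44 with 1 liver left out. The median of the 18 was 0.06 (-0.064 to 0.22 with 1 liver left out), beside 0.03 over all genes. The test of GCV against VEH did not pass for Mcm10 in either sex, with 0.08 ± 0.16 in females and 0.05 ± 0.15 in males. In p16-3MR livers the same contrast had the same sign (-1.05 ± 0.69) with an adjusted p of 0.733, and the sexes overlapped there.

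**Figure D5:**
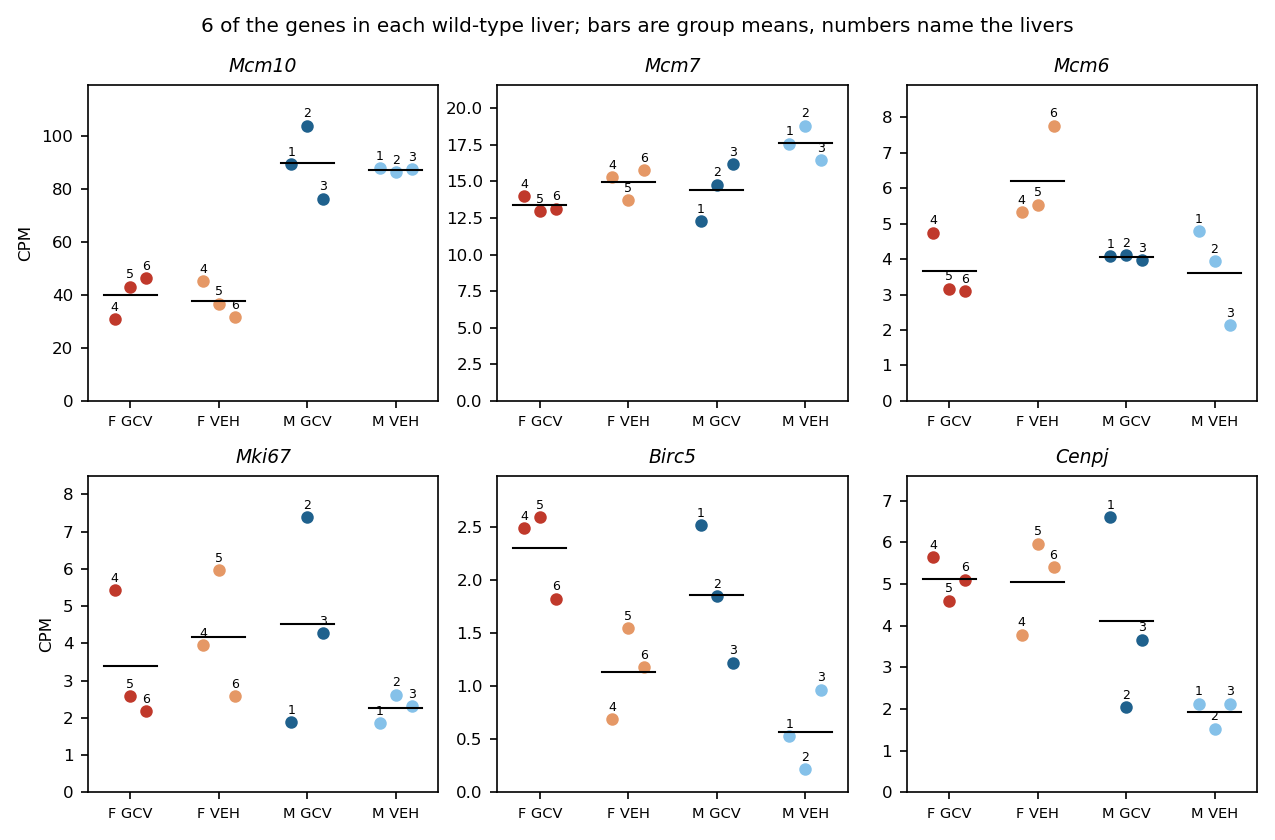
CPM of 6 genes in each wild-type liver, by group, with group means as bars and liver numbers beside the points. The 6 males have 76.3 to 104 CPM of Mcm10 and the 6 females 30.7 to 46.3 CPM, while Mcm7, Mcm6, Mki67 and Cenpj overlap between the sexes. Birc5 is higher after GCV than after VEH in either sex, on 1 to 11 counts per liver.

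GCV against VEH in wild-type mice is the control for effects of the drug without the transgene, in younger mice treated for a shorter time. In females, edgeR called 0 of 18, against 0.0316% of all genes, and DESeq2 and limma-voom called 0. At an unadjusted p under 0.05 there was 1 gene, against 4.32% of all genes. It was E2f1, at 1.36, 2.3 and 2.01 CPM in GCV females, 3.44, 4.87 and 3.06 in VEH females, 3.77, 1.85 and 3.97 in GCV males and 2.66, 3.06 and 2.9 in VEH males, with a log2 fold change of -1.0 ± 0.47 (adjusted p = 1), the 3 GCV females below the 3 VEH females, as for 4.95% of all genes. Mcm6 was at 4.74, 3.16 and 3.1 CPM in GCV females, 5.33, 5.53 and 7.76 in VEH females, 4.09, 4.1 and 3.97 in GCV males and 4.79, 3.93 and 2.13 in VEH males and also separated the female groups, with -0.75 ± 0.38 (adjusted p = 1). Monocyte and neutrophil markers (3 matched) summed to 0.575 to 2.55 CPM in GCV females and 2.92 to 5.09 in VEH females. Those of T and NK cells (3 matched) summed to 0.678 to 1.28 and 1.2 to 2.43 CPM, with overlap. The part of such cells in the E2f1 and Mcm6 levels was not tested. Cdt1 had 0.87 ± 0.57, Mcm7 -0.16 ± 0.21, Top2a -0.32 ± 0.43, Mki67 -0.3 ± 0.46, Mcm4 0.23 ± 0.51, Mcm5 0.35 ± 0.63 and Cenpj 0.03 ± 0.39. With 1 liver left out, Cdt1 ran from 0.27 to 1.63, Top2a from -0.97 to 0.12 and Mki67 from -0.81 to 0.032. The median of the 18 was 0.17, beside 0.00 over all genes.

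In wild-type males, edgeR called 0 of 18 and 0% of all genes, as did DESeq2 and limma-voom for the 18. There were 3 genes at an unadjusted p under 0.05, against 4.84% of all genes, and all 3 had higher values after GCV. Cenpj was at 5.65, 4.6 and 5.11 CPM in GCV females, 3.78, 5.97 and 5.41 in VEH females, 6.6, 2.05 and 3.66 in GCV males and 2.13, 1.53 and 2.13 in VEH males with a log2 change of 1.03 ± 0.47 (adjusted p = 0.905). Mki67 was at 5.42, 2.59 and 2.19 CPM in GCV females, 3.96, 5.97 and 2.59 in VEH females, 1.89, 7.38 and 4.27 in GCV males and 1.86, 2.62 and 2.32 in VEH males with a log2 change of 1.03 ± 0.48 (adjusted p = 0.905). In both, 1 GCV male lay among the VEH males. With 1 liver left out, Cenpj ran from 0.52 to 1.39 and Mki67 from 0.43 to 1.37. The 4 erythroid markers that could be matched summed to 1878, 1698 and 1269.6 CPM in GCV females, 768, 1361 and 1316 in VEH females, 1776, 3766 and 1659.7 in GCV males and 1494, 1527 and 1622 in VEH males. The male with the highest Mki67, GCV male 2, also had the highest erythroid sum of the 12 wild-type livers, and the part of such cells in the Mki67 level was not tested. Birc5, which encodes survivin, a partner of Aurora B, was at 2.49, 2.59 and 1.82 CPM in GCV females, 0.688, 1.55 and 1.18 in VEH females, 2.52, 1.85 and 1.22 in GCV males and 0.532, 0.219 and 0.967 in VEH males with a log2 change of 1.62 ± 0.73 (adjusted p = 0.905). It is named after its values were seen, since its mean was 6.25 counts. Of the 18 genes, Birc5 and Aurka had all 3 GCV above all 3 VEH males, against 4.48% of all genes, and Mcm7 below, against 4.37%. Aurka did so near the floor, on 3 to 5 counts per GCV male and 0 to 2 per VEH male. The GCV livers lay above the VEH livers for Birc5 in males and also in females (1.01 ± 0.64, adjusted p = 1), a pattern in both sexes that 33 of 12643 genes (0.261%) had. Birc5 was picked after these values were seen, so that share cannot weigh them. It had 1 to 11 counts per liver. Mcm4, Mcm5, Mcm6, Mcm7, Top2a and Cdt1 had 0.89 ± 0.58, -0.71 ± 0.65, 0.19 ± 0.41, -0.29 ± 0.21, 0.53 ± 0.49 and 0.6 ± 0.58. With 1 liver left out, Mcm4 ran from 0.41 to 1.38, Top2a from 0.29 to 0.7 and Cdt1 from 0.33 to 1.16. The median of the 18 was 0.71, beside 0.00 over all genes.

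The change with GCV was not shown to differ between the sexes in wild-type mice. edgeR called 0 of 18 (0% of all genes), with 0 at an unadjusted p under 0.05 against 4.24% of all genes, and DESeq2 and limma-voom called 0 of 18. Mki67 came nearest, with a difference of -1.32 ± 0.67 (adjusted p = 0.998), then Mcm6 with -0.93 ± 0.56, E2f1 with -1.11 ± 0.66, Cenpj with -1.0 ± 0.61, Top2a with -0.86 ± 0.65 and Mcm4 with -0.66 ± 0.77. With 1 liver left out, Mki67 ran from -1.84 to -0.72 and Cenpj from -1.36 to -0.48. Top2a then ran from -1.51 to -0.41 and Mcm4 from -1.15 to -0.18. The median difference of the 18 was -0.41, beside -0.01 over all genes.

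Of the 84 other pathway genes, 52 could be read in wild-type livers, and 2 of 52 passed the test between the sexes, against 8.44% of all genes, both higher in females than in males. Ccnd1 was at 169, 157 and 138 CPM in GCV females, 277, 199 and 256 in VEH females, 50.9, 47.6 and 30.8 in GCV males and 45, 38.7 and 39.7 in VEH males, without overlap between the sexes, and females were higher by 2.21 ± 0.11 on the log2 scale (edgeR adjusted p = 8.73e-13). Ccnd2, a related cyclin, was at 41.6, 46.6 and 49.1 CPM in GCV females, 45.1, 51.1 and 37.4 in VEH females, 32.1, 35.3 and 40.6 in GCV males and 33.8, 33.7 and 31.1 in VEH males, with 0.39 ± 0.11 (adjusted p = 0.0151). That call was lost without GCV female 6 (adjusted p = 0.0541), without VEH female 5 (0.0631) and in VEH-treated livers alone (0.44, adjusted p = 0.106). Cdk6, a kinase partner of both, had -0.32 ± 0.11 and Spc25, a kinetochore protein, -0.99 ± 0.41, with adjusted p of 0.0659 and 0.163. Cdk6 passed without VEH female 6 (0.0393) or GCV male 3 (0.0279), and Spc25 without VEH male 1 (0.0374). Over all livers left out in turn, the adjusted p ran up to 0.208 for Cdk6 and 0.663 for Spc25, whose value was -0.39 without GCV male 2. Ccnd1 had lower values in GCV than in VEH females, without overlap, with a log2 fold change of -0.66 ± 0.14 (adjusted p = 0.137). DESeq2 called that change (adjusted p = 0.0224), as did edgeR without VEH female 5 (adjusted p = 0.00342), the fit of the 6 females alone (0.000179) and the fit with a replicate block (6.53e-05), while leaving out other livers gave adjusted p of up to 0.747. The difference of that change from the male one was -0.73 ± 0.22 (adjusted p = 0.879 by edgeR). With the replicate block the adjusted p was 0.0297, though the numbers were not shown to pair the livers. With GCV, 29 of 52 had higher and 23 lower fitted levels in females, and 25 higher and 27 lower in males, with 0 called in either sex by edgeR and 1 and 4 at an unadjusted p under 0.05, against 4.32% and 4.84% of all genes. In males, among those with a mean of at least 10 counts, the smallest p belonged to Zwint, of the kinetochore, with -0.5 ± 0.23, and Cdk6, with 0.34 ± 0.16.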

How the data were processed

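RNA from 24 mouse livers was sequenced from transcript 3′ ends (Smart-3SEQ). Per the submitters' processing notes and the study's methods, the authors checked reads with FastQC 0.11.9, trimmed them with Trim Galore 0.6.10, quantified them with Salmon 1.10.3 (genome build mm10) and summed them by gene with tximport. The authors deposited estimated counts as whole numbers, 1 table per genotype, without the genes of fewest reads. Strand use in counting was not given in the sources used here. Of the wild-type labels, which lack 9 letters, 10496 matched 1 symbol, 2067 several and 80 none, and only the first were given a gene name.

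Each table was fitted on its own in R 4.3.3 with edgeR 4.0.16 (TMM scaling, robust quasi-likelihood test, 1 mean per group over 12 livers), with Benjamini-Hochberg adjustment over all genes and a threshold of 0.05. The pipeline was tested on simulated data with 200 changed genes. Alternatives were DESeq2 1.42.0, its size factors in edgeR, filterByExpr, limma-voom (limma 3.58.1) with quality weights, the 6 livers of 1 sex, VEH livers alone, a replicate block and each liver left out. In each comparison, up to 6 of the genes with a mean of at least 10 counts were named by smallest p, with Mki67, Top2a, Cdk1, Ccnb1, Ccne1, Mcm2 to Mcm7, Pcna, Rrm1, Tk1 and Cenpj, and up to 5 of the other pathway genes. The 40 genes and the lists were chosen with earlier results of these data known. 1 cell marker is not reported here.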

Additional observations from a re-analysis of the deposited data

How the results depend on the processing

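No p16-3MR comparison gained a called gene among the 40 under any alternative except limma-voom with quality weights in males. Its 1 call was Ccne1, at a mean of 4.83 counts. That fit gave medians of 2.19 in males and -2.99 for the difference between the sexes. Over the fits that each left out 1 liver, the median ran from 0.066 to 2.60 in p16-3MR males, from -3.30 to -0.70 for the difference between the sexes, from 0.47 to 0.81 in wild-type males, from 0.041 to 0.24 in wild-type females, from -0.63 to -0.15 for the wild-type difference and from -0.064 to 0.22 between the wild-type sexes, and the wild-type sex comparison called 1 to 2 of 18. The wild-type difference had a median of -0.66 with filterByExpr and -0.63 with limma-voom, and the wild-type sex median was 0.42 in VEH livers alone. For single genes the alternatives covered 88 named results, and 5 of these turned direction. They were E2f1 in p16-3MR males without GCV male 32 (-0.16 to 1.41 over the livers left out), Rrm2 in the p16-3MR difference with limma-voom (-0.49), Nusap1 between the p16-3MR sexes in VEH livers (0.083), and in wild-type females Top2a without GCV female 6 (-0.97 to 0.12) and Mki67 without VEH female 5 (-0.81 to 0.032). The cause was not tested. On unscaled library sizes the genes summed to 93.3 CPM in p16-3MR liver 33, 945 in 32 and 975 in 24. In wild-type livers they summed to 96.1, 107 and 102 in GCV females, 102, 105 and 92.9 in VEH females, 121, 149 and 112 in GCV males, and 112, 119 and 116 in VEH males. With only 100 bases before the start, CHR letters were found for 6 genes (18.2%) and E2F letters for 4 (12.1%). Of all genes, 6.76% held CHR letters and 4.37% E2F letters there.

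In wild-type mice, same-numbered livers of the 2 treatments had correlations of -0.019, -0.026 and 0.027 in females and 0.110, 0.158 and -0.018 in males, so the numbers were not taken as pairs. With the replicate block, 0 of 18 genes were called in any GCV comparison, Ccnd1 of the other pathway genes was called in females (adjusted p = 6.53e-05) and for the female change against the male one (0.0297), and the medians were 0.18 in females, 0.77 in males and -0.45 for the difference. Over all genes the block called 27 higher and 27 lower in females, against 1 and 3 without it, and 5 and 6 in males, against 0. The p16-3MR groups share no replicate numbers. Low counts limit most of these genes: 3 counts amount to up to 2.32 CPM in p16-3MR livers.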
